A study of Homo sapiens with 8 samples.

Results

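AKAP12 encodes an A-kinase anchoring protein, a scaffold that holds cAMP-dependent protein kinase (PKA) and protein kinase C (PKC) near the cell cortex. It is described here together with the genes of the PKA regulatory subunits (PRKAR1A, PRKAR1B, PRKAR2A, PRKAR2B), the catalytic subunits (PRKACA, PRKACB) and the PKA inhibitor peptides (PKIA, PKIB, PKIG), 10 of the 58051 genes in the count tables. AKAP12 was selected on its counts in these libraries, which were much higher without serum than with it, so its serum difference is given as a description with no test. The 9 PKA genes were listed for their role, with earlier results of these data known.

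RNA was sequenced from 4 lines that were each grown from a single cell of A375, an established human melanoma cell line. The lines were labelled WT in the sample titles, which do not say for which gene, and the labels name no other treatment than the medium. Each line (WT1 to WT4) was cultured for 12 h in DMEM with 10% fetal bovine serum or in DMEM without it, which gave 4 serum and 4 serum-free libraries, 1 of each per line. The series asked how melanoma cells change their transcripts when serum is withdrawn. Each line is 1 clone, so the spread between lines holds both clonal and culture differences. The deposited counts of WT4 carry another clone name than the sample title, so that line rests on its title alone.

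PKA is held inactive as a complex of regulatory and catalytic subunits, and cAMP bound to the regulatory subunits frees the catalytic ones to phosphorylate their substrates. Anchoring proteins place the complex by gripping mainly the type II regulatory subunits, and the inhibitor peptides block free catalytic subunits. In melanocytes and melanoma cells cAMP and PKA act through CREB on MITF, the lineage transcription factor, and AKAP12 (also called SSeCKS or gravin) also binds Src and beta-adrenergic receptors.

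Reads assigned to genes numbered 29759279 to 67101005 in the serum libraries and 37847737 to 73341551 in the serum-free libraries. The share of reads with more than 1 alignment was 22.7% in the WT1 serum library and 16.8% in the WT2 serum library, and 5.73% to 10.1% in the other 6. Over all genes tested, the log2 difference between conditions correlated with transcript GC content (Spearman's rho 0.36 across 17425 genes, which are not independent replicates). Of 9 melanocyte and melanoma markers, MITF, S100B and S100A1 averaged above 1 CPM (counts scaled to a common library size) in both conditions, and SOX10 was listed at 0 in every library. SOX10 lies inside the span of POLR2F in RefSeq, and HTSeq leaves reads that fall in more than 1 gene uncounted. The summed melanocyte markers lay between 57.8 and 70.9 CPM with serum and between 55.0 and 75.0 CPM without it. The fibroblast, epithelial, endothelial and leukocyte lists, which hold fewer genes, summed to at most 9.57, 21.7, 1.87 and 0.853 CPM in any library. MITF and S100B made up most of the melanocyte sum, with means of 40.2 and 18.9 CPM with serum. PMEL, MLANA, TYR, DCT and TYRP1 averaged at most 1.23 CPM in either condition. KRT14 made up most of the epithelial sum (mean 17.2 CPM with serum). NECTIN1, the gene the series is named for, was at 67.4 CPM in WT4 and 50.8 to 59.5 CPM in the other lines with serum, and at 44.9 CPM in WT4 and 45.0 to 48.6 CPM in the others without it.

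AKAP12 (ENSG00000131016) spans chr6:151239967-151358559 on GRCh38, and RefSeq gives it 3 transcription starts on the plus strand. The 250 bases before each start are shown because AKAP12 is the gene with the large difference and because all 3 windows hold the palindromic E-box CACGTG. They are written in lower case from RefSeq (GRCh38.p14), with the E-box in capitals and, in the first window, a CArG box, the element of serum response factor, also in capitals.
AKAP12 start 1, chr6:151239717-151239966: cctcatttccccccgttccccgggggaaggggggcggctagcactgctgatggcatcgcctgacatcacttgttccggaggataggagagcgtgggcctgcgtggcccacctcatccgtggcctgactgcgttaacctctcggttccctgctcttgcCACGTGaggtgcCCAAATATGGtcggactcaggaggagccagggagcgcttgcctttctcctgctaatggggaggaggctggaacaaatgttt
AKAP12 start 2, chr6:151325281-151325530: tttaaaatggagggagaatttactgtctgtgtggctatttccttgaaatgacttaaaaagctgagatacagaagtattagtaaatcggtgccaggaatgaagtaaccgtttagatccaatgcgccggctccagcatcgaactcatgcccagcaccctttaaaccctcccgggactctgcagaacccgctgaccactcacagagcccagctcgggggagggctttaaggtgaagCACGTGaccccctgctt
AKAP12 start 3, chr6:151341456-151341705: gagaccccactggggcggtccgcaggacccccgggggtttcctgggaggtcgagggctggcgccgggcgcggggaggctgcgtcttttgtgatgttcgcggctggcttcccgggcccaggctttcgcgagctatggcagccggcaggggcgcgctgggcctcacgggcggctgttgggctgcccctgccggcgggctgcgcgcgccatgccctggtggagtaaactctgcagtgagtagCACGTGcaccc

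The E-box began 93, 17 and 11 bases before the 3 starts. CACGTG was present in 6.34% of 35116 RefSeq promoter windows of the same length, and 4 of the 1579 genes with at least 3 windows (0.253%) held it in every one, AKAP12 included. Of 28 member windows 6 held it, 3 of them of AKAP12 and the rest before PKIB, PRKAR1A and PRKAR2B. The CArG box began 81 bases before the first start, and 1.16% of all windows held one. The search covered 8 motifs on both strands over the 28 windows of the 9 members in the promoter table: the E-box, the CArG box, the cAMP response element TGACGTCA, its shorter core TGACG (which every full element also holds), the forkhead motif TGTTTAC, the AP-1 motif TGACTCA, the CCAAT box and the EGR motif GCGTGGGCG. The full cAMP response element was found in 1 member window, before a start of PRKAR1A, and in 1.65% of all windows. The core TGACG was found in 7 of the 28 member windows, before PKIB, PRKACA, PRKACB, PRKAR1A and PRKAR1B, and in 21.2% of all windows. The PRKAR1A window is shown, with the full element in capitals, because it is the only member window that holds the full element. PKA signals reach CREB through this element.
PRKAR1A, chr17:68512180-68512429, plus strand: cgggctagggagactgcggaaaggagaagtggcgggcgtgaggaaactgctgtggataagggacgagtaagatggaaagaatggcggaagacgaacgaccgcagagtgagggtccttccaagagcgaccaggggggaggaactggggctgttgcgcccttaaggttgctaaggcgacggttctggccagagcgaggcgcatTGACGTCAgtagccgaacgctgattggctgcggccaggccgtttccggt

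These matches are descriptions of sequence. The counts are summed per gene, so they do not tell which AKAP12 start was in use, and no measurement of binding was made.

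AKAP12 transcripts were 4.17 to 6.40 times as abundant without serum in the 4 lines. Its level, in CPM after TMM scaling, was 205, 173, 212 and 253 with serum in WT1, WT2, WT3 and WT4 (mean 211 ± 33.0, SD, n = 4). Without serum the same lines were at 946, 719.8, 1160.3 and 1620.1 (mean 1112 ± 384). The lowest serum-free library was well above the highest serum library, and WT4 was highest and WT2 lowest in both conditions. In the same order the ratio within a line was 4.61, 4.17, 5.47 and 6.40, and the log2 difference was 2.21, 2.06, 2.45 and 2.68. The edgeR estimate over all libraries was a log2 fold change of 2.40 (SE 0.25), 2.35 (SE 0.09) with the line as a replicate block, and 2.26 without WT4. By log2 fold change AKAP12 ranked 19th of the 17671 genes tested. In bulk RNA a larger share of cells with the transcript and more transcript in each cell cannot be told apart, and the overlapping genes in RefSeq were small RNA pseudogenes and 1 uncharacterized locus.

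**Figure D1:**
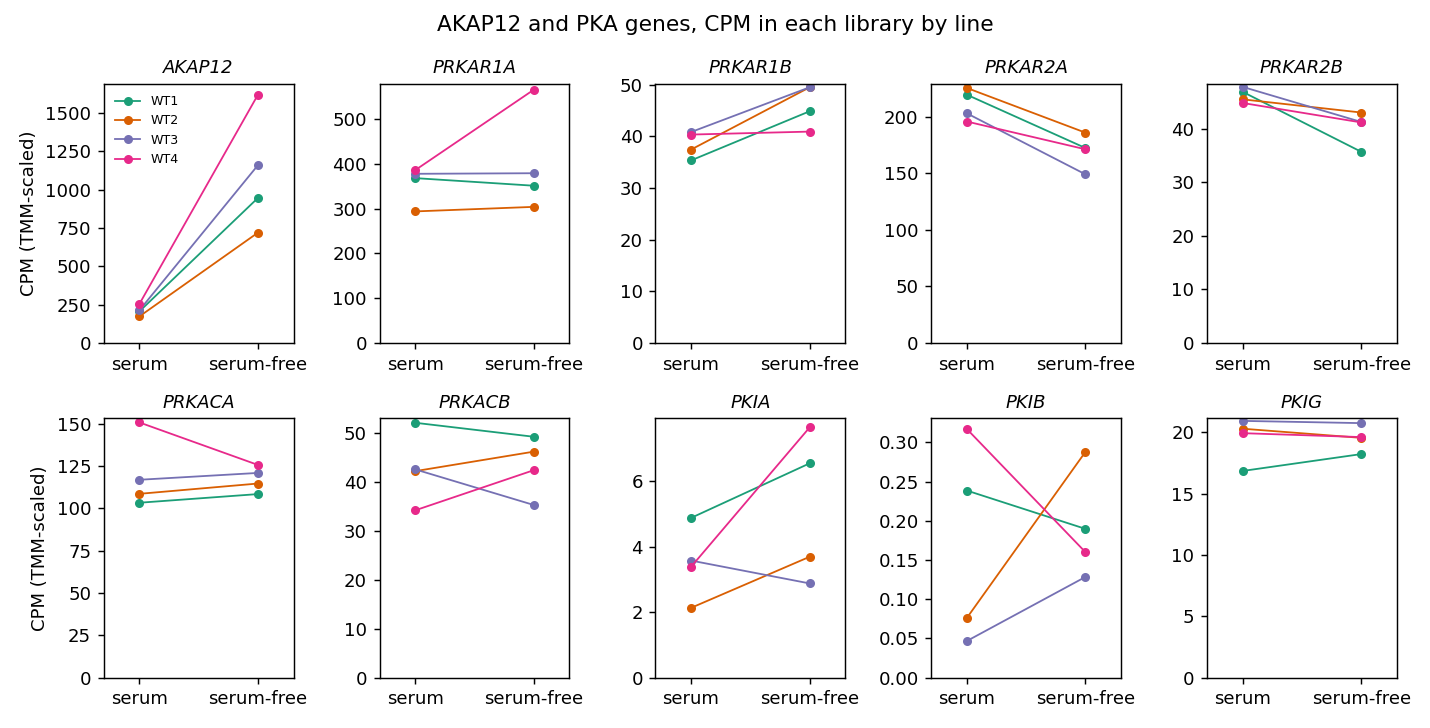
Level of each of the 10 genes (TMM-scaled CPM, linear axes from 0, scaled separately per gene) with and without serum, each line joined by its color. AKAP12 went from 173 to 253 CPM with serum to 719.8 to 1620.1 CPM without it, and of the PKA genes only PRKAR1B, PRKAR2A and PRKAR2B have conditions that do not overlap.

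Per kilobase of merged exons (RPKM), AKAP12 changed its place among the members. With serum the order of mean RPKM was PRKAR1A (28.4 ± 3.37), PRKAR2A (24.2 ± 1.59), AKAP12 (24.0 ± 3.77), PRKACA (16.3 ± 2.91), PKIG (7.91 ± 0.736), PRKAR1B (7.72 ± 0.518), PRKACB (6.25 ± 1.07), PRKAR2B (3.68 ± 0.108), PKIA (0.869 ± 0.280) and PKIB (0.0494 ± 0.0377). The ranges of the leading 4 genes overlapped from each to the next, as did those of PKIG, PRKAR1B and PRKACB. Within lines PRKAR2A was above AKAP12 in 2 of 4 and PKIG above PRKAR1B in 2 of 4, while AKAP12 was above PRKACA in all 4. Without serum AKAP12 came first at 127 ± 43.7 RPKM, above PRKAR1A (31.8 ± 9.13) in all 4 lines with no overlap. PRKAR2A (19.5 ± 1.75) and PRKACA (16.0 ± 1.02) followed with overlapping ranges, then PRKAR1B (9.27 ± 0.831) and PKIG (7.92 ± 0.418), also overlapping, and then PRKACB, PRKAR2B, PKIA and PKIB in that order. Among the 17425 genes ranked by RPKM, whose medians were 2.75 with serum and 2.93 without, AKAP12 moved from rank 1942 to rank 223. With the length of the longest transcript in place of merged exons, AKAP12 and PRKACA exchanged places with serum, as did PKIG with PRKAR1B and PRKACB with PRKAR2B, and PRKAR2A and PRKACA exchanged places without serum. The levels themselves moved with the length used, in serum from 3.68 to 10.6 RPKM for PRKAR2B, from 7.72 to 15.1 for PRKAR1B and from 28.4 to 48.0 for PRKAR1A, but only from 24.0 to 24.9 for AKAP12.

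Of the 9 PKA genes, 8 passed the filter on low counts and 2 passed the threshold of 0.05 on the adjusted p (edgeR quasi-likelihood test, Benjamini-Hochberg over all genes tested), with PRKAR1B higher and PRKAR2A lower without serum. Over all 17671 genes 25.1% were called, 11.1% higher and 14.0% lower, so 2 of 8 is a share near the background. Upper-quartile scaling turned the balance over all genes from 1957 higher and 2477 lower to 2508 higher and 1843 lower. With the line as a replicate block 4 of the 8 were called (PRKAR1B and PKIA higher, PRKAR2A and PRKAR2B lower) against 45.7% of all genes. With the block and a correction for GC content, 5 of the 8 were called against 46.4% of all genes, and only PRKAR2A and PKIA were called in both blocked fits. CPM did not overlap between conditions for 3 of the 8 (PRKAR1B, PRKAR2A and PRKAR2B), and for 27.5% of all genes tested. The median log2 fold change of the 8 was 0.01, beside 0.03 over all genes.

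Among the type I regulatory subunits, the soluble forms of the holoenzyme, PRKAR1A had the highest mean RPKM of the PKA genes. PRKAR1A was at 369, 294, 378 and 386 CPM in WT1, WT2, WT3 and WT4 with serum (mean 357 ± 42.4) and at 352, 304, 379.5 and 566 CPM without it (mean 400.4 ± 115). The conditions overlapped, and the WT4 serum-free library stood above the other 7. The log2 difference was 0.55 in WT4 and -0.07 to 0.05 in the other lines. The fitted log2 fold change was 0.17 (SE 0.18, edgeR adjusted p = 0.552), and -0.01 without WT4 (adjusted p = 0.972). It was 0.13 with the block (adjusted p = 0.221) and 0.35 with the block and the GC correction (adjusted p = 0.000201), where the call was made. The longest PRKAR1A transcript is 36.0% GC. The gene's span overlaps those of WIPI1, ARSG and FAM20A in RefSeq, where shared reads go uncounted.

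PRKAR1B, the second type I gene, was a small step higher without serum. It was at 35.4, 37.4, 40.8 and 40.4 CPM in WT1 to WT4 with serum (mean 38.5 ± 2.58) and at 44.9, 49.5, 49.5 and 40.9 CPM without it (mean 46.2 ± 4.14). The groups did not overlap, although WT4 differed by only 0.02 on the log2 scale against 0.28 to 0.40 in the other 3 lines. The log2 fold change was 0.26 (SE 0.08, edgeR adjusted p = 0.0452). The call was lost with RLE scaling (adjusted p = 0.0559), with no filter (0.0784) and in 9 of the 12 fits with 1 library or 1 line removed (adjusted p up to 0.226). With the block and the GC correction the log2 fold change was 0.02 (edgeR adjusted p = 0.834). The longest PRKAR1B transcript is 62.4% GC, the highest of the longest transcripts among the members. PRKAR1B also overlaps 2 antisense genes and DNAAF5, and the library kit did not mark strand, so reads in the shared stretches cannot be assigned to one gene, and the deposited count may miss them.

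Both type II regulatory subunits, the forms that anchoring proteins bind most tightly, were lower without serum in all 4 lines. PRKAR2A was at 219, 225, 203 and 196 CPM in WT1 to WT4 with serum (mean 211 ± 13.9) and at 172, 186, 149 and 171 CPM without it (mean 169.6 ± 15.2). The groups did not overlap, and the log2 differences ran from -0.45 in WT3 to -0.19 in WT4. PRKAR2A fell by 0.31 on the log2 scale (SE 0.08, edgeR adjusted p = 0.0199). It was called in both blocked fits, with a log2 fold change of -0.30 after the GC correction, and its longest transcript is 45.6% GC. The call was lost with upper-quartile scaling (adjusted p = 0.0508), without the serum library of WT1 (0.0563) or of WT2 (0.0591), and without line WT1 (0.111), WT2 (0.0625) or WT3 (0.0685), while the log2 fold change stayed between -0.36 and -0.26 when a library or line was left out.

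PRKAR2B was at 46.9, 45.5, 47.8 and 44.8 CPM with serum in WT1 to WT4 (mean 46.2 ± 1.36) and at 35.7, 43.0, 41.3 and 41.2 CPM without it (mean 40.3 ± 3.18). The groups did not overlap, and WT1 showed the largest step. The log2 fold change of -0.20 (SE 0.07) did not pass the threshold (edgeR adjusted p = 0.0737). It passed with the block (edgeR adjusted p = 0.0233) and by DESeq2 (adjusted p = 0.0426). Of the 12 fits with a library or line removed it passed in 1, without the WT4 serum library (edgeR adjusted p = 0.0492). With the block and the GC correction the log2 fold change was -0.02 (edgeR adjusted p = 0.743). The longest PRKAR2B transcript is 38.0% GC, and an antisense gene, PRKAR2B-AS1, overlaps the gene.

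The catalytic subunits, the kinases themselves, overlapped between conditions and were not called without the GC correction. PRKACA was at 103, 109, 117 and 151 CPM in WT1 to WT4 with serum (mean 119.8 ± 21.3) and at 108, 115, 121 and 126 CPM without it (mean 117 ± 7.49). WT4 was the highest line in both conditions and the one line that was lower without serum, by -0.26 on the log2 scale against 0.05 to 0.08 in the other lines. The fitted log2 fold change was -0.03 (SE 0.11, edgeR adjusted p = 0.881), and -0.14 with the block and the GC correction (adjusted p = 0.0287). PRKACB was at 52.1, 42.2, 42.6 and 34.2 CPM with serum (mean 42.8 ± 7.32) and at 49.2, 46.2, 35.3 and 42.4 CPM without it (mean 43.3 ± 6.02). Its lines went both ways, higher without serum in WT2 and WT4 and lower in WT1 and WT3, and the log2 fold change was 0.02 (SE 0.14, edgeR adjusted p = 0.945). With the block and the GC correction it was 0.20 (edgeR adjusted p = 0.0111). The longest transcripts of PRKACA and PRKACB are 54.5% and 37.9% GC.

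**Figure D2:**
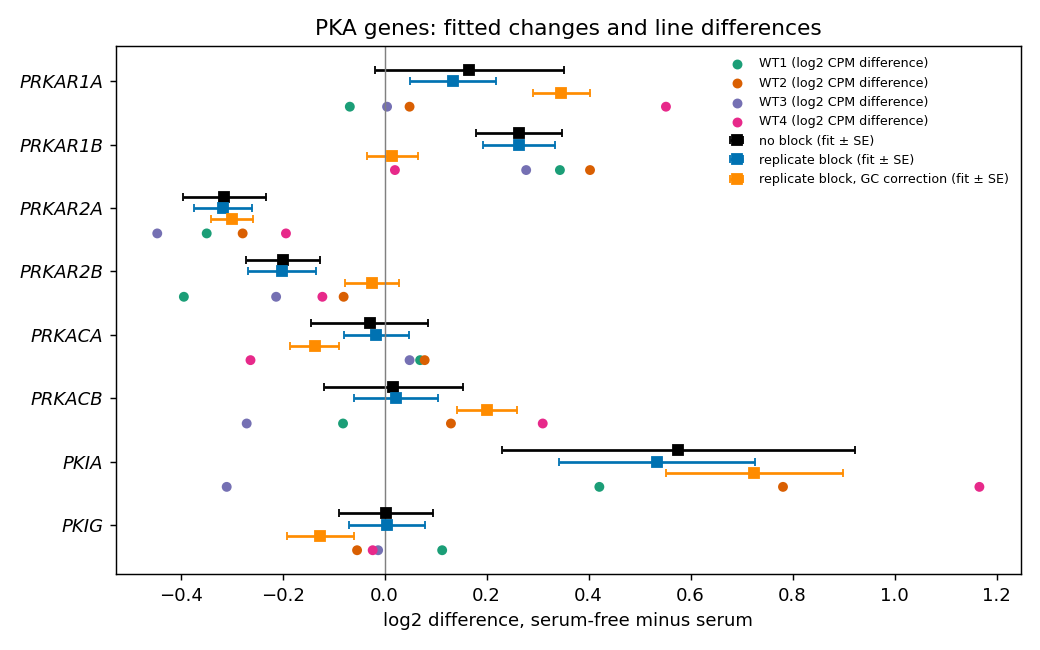
Log2 difference between serum-free and serum for the 8 PKA genes tested (x axis), with squares for the edgeR estimate ± SE in 3 fits and dots for the log2 CPM difference of each line. PRKAR2A sits below 0 in every fit and every line, whereas the GC correction moves PRKAR1B from 0.26 to 0.02 and PRKAR1A from 0.13 to 0.35.

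The inhibitor peptides were the least abundant members apart from PKIG. PKIA was at 4.88, 2.13, 3.58 and 3.38 CPM in WT1 to WT4 with serum (mean 3.49 ± 1.12) and at 6.54, 3.69, 2.88 and 7.64 CPM without it (mean 5.19 ± 2.27). It was higher without serum in WT1, WT2 and WT4 and lower in WT3, and the conditions overlapped. The log2 fold change was 0.58 (SE 0.35, edgeR adjusted p = 0.254). With the block it was 0.53 and passed the threshold (adjusted p = 0.0338), as it did with the GC correction added (0.72, adjusted p = 0.00343). PKIA rests on 96 to 430 reads per library and overlaps an antisense gene, PKIA-AS1. PKIG was at 16.9 to 20.9 CPM with serum and at 18.2 to 20.8 CPM without it, with a log2 fold change of 0.00 (SE 0.09, edgeR adjusted p = 0.990). PKIB had 2 to 9 reads in the serum libraries and 5 to 22 in the serum-free libraries and did not pass the filter, and no difference was detectable at this depth.

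Summed per class, regulatory RPKM was 64.0 ± 2.40 with serum and 63.8 ± 8.28 without it, and catalytic RPKM was 22.6 ± 2.03 and 22.3 ± 0.729. The ratio of regulatory to catalytic RPKM was 2.84 ± 0.211 with serum and 2.85 ± 0.284 without it, higher without serum in WT4 alone. Without WT4 the ratio was 2.95 with serum and 2.71 without it, lower without serum in each of the other 3 lines. Within the regulatory class the type II subunits made up 44.3%, 48.9%, 41.5% and 40.2% with serum in WT1 to WT4 and 38.0%, 42.1%, 33.7% and 30.1% without it. The mean share was 43.7% ± 3.85 with serum and 36.0% ± 5.18 without it, lower in each of the 4 lines although the ranges of the conditions overlapped. PRKACB made up 28.0% ± 6.41 of catalytic RPKM with serum and 28.3% ± 3.92 without it. AKAP12 RPKM was 0.374 ± 0.0504 of summed regulatory RPKM with serum and 1.95 ± 0.451 of it without, and 0.868 ± 0.184 and 5.65 ± 2.06 of the type II sum. With longest transcript lengths the first pair was 0.234 and 1.20. These are transcript ratios, and no protein was measured.

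**Figure D3:**
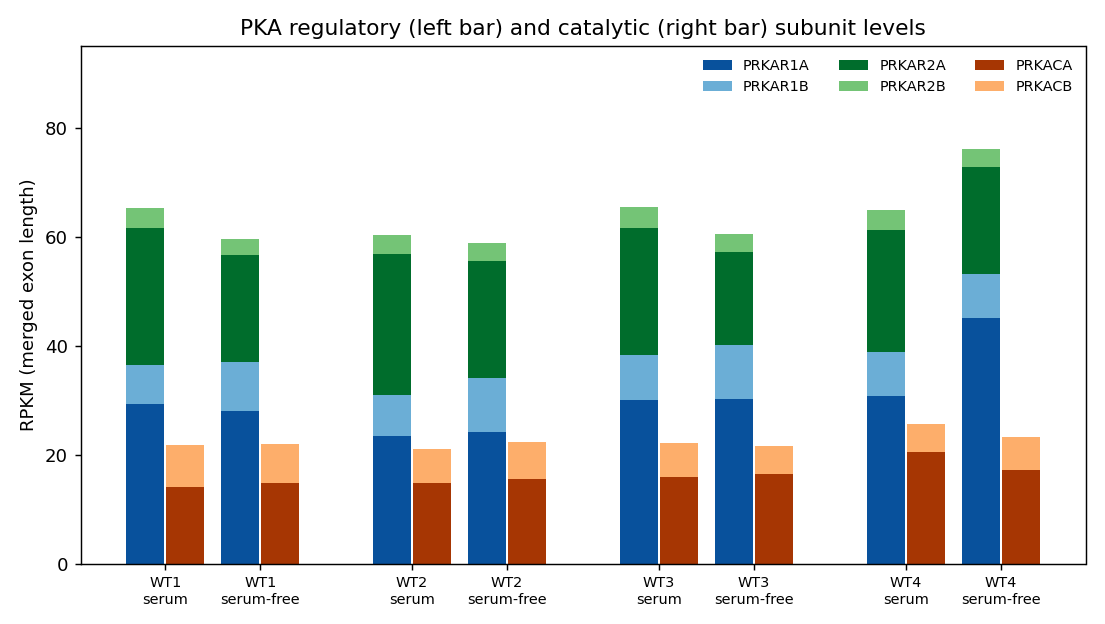
RPKM over merged exons of the 4 regulatory subunits (left bar of each pair, stacked) and the 2 catalytic subunits (right bar, stacked) in each library. Regulatory bars reach 58.9 to 76.2 RPKM, the highest in the WT4 serum-free library, and the dark green PRKAR2A block is smaller without serum in every line.

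Differences between the lines, which did not enter the choice of AKAP12, were tested with serum as a covariate and 2 libraries per line. AKAP12, PRKAR1A, PRKACA and PKIA passed, 4 of 9 members tested beside 22.9% of all genes. AKAP12 had an adjusted p of 0.000850 (edgeR quasi-likelihood F-test), with mean log2 CPM from 8.46 in WT2 over 8.78 in WT1 and 8.95 in WT3 to 9.32 in WT4. It stayed past the threshold without any single line, with an adjusted p of 0.00368 without WT4. PRKAR1A showed the same order of lines, WT2, WT1, WT3 and WT4 from lowest to highest (adjusted p = 0.00885), and was no longer past the threshold without WT2 (0.0766). PRKACA was highest in WT4 and lowest in WT1 (adjusted p = 0.0252), and was not past the threshold without WT1 (0.101) or WT4 (0.0798). PKIA was highest in WT1 and lowest in WT2 (adjusted p = 0.0240), and was not past it without WT1 (0.0702) or WT2 (0.102). PRKACB lay just outside the threshold (adjusted p = 0.0527), and passed it with RLE scaling (0.0483), upper-quartile scaling (0.0450), no filter (0.000773) or the stricter filter (0.0496), and without WT2 (0.0472) or WT4 (0.00460). PRKAR2A did not pass with all lines (0.149) and passed without WT4 (0.00714). PRKAR1B, PRKAR2B and PKIG did not pass under any of these settings.

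Genes were also ranked by likeness to AKAP12 among 11531 protein-coding genes, as Pearson's r of log2 CPM over the 8 libraries, which are pairs from 4 lines. The highest were KLHL24 (r = 0.997), DEPTOR (0.996), RBL2 (0.994), HBP1 (0.993) and RALGDS (0.993). The AKAP12 serum difference dominates this measure, so genes near the top of it are bound to be higher without serum. DEPTOR, an inhibitor of mTOR, averaged 2.68 CPM with serum and 12.8 CPM without it, HBP1, a transcriptional repressor of cell cycle genes, 13.9 and 40.3 CPM, and RBL2, a pocket protein of the retinoblastoma family, 45.0 and 59.4 CPM. After each gene was centered within its condition, which removed its mean serum difference, the highest were HK1 (0.990), PLPP4 (0.980), MRPS30 (0.979), GANAB (0.978) and THEM4 (0.976). Differences between lines and values of single libraries both remain in the centered measure. PRKAR1A was at rank 33 by that measure (r = 0.951) and at rank 3515 before centering (r = 0.49), and PRKAR2A had r = -0.90 before centering. Within 500000 bases of AKAP12 on either side, a window chosen after values were seen, RefSeq has 8 protein-coding genes of which 5 were tested. MTHFD1L and ZBTB2 were lower without serum (log2 fold changes of -0.44 and -0.42) and the other 3 were not called, with a range over the 5 of -0.59 to 0.83. PLEKHG1 was at the upper end (0.83, adjusted p = 0.0564) and was called higher with the replicate block (edgeR adjusted p = 0.000144).

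The wider cAMP pathway was examined in 9 lists holding 87 tested genes. Without the block 21 of them (24.1%) were called, 11 higher and 10 lower, beside 25.1% of all genes, 11.1% higher and 14.0% lower, and the median log2 fold change of the 87 was 0.02. With the replicate block 46 (52.9%) were called, and over all genes that fit called 45.7%, 23.2% higher and 22.4% lower. The counts of single lists are read against the same shares, and several rest on few genes. Leaving out line WT1, WT2 or WT3 left 6, 8 and 6 calls, and leaving out the serum library of WT1 or the serum-free library of WT4 left 13 each. Leaving out line WT4 left 28 calls, and leaving out its serum library left 31. Of the 21 genes, 4 (ADCY3, PDE4D, RAPGEF3 and PPP3R1) kept their call in all 12 fits with a library or line removed, while GSKIP, PDE8A, GNAI3, RAPGEF4, ATF1, EP300, MITF, PRKCQ and SRC lost it in over 6 of the 12. Genes called with the block alone that are named below were chosen after their values were seen. Among the other settings, MITF lost its call with limma voom, no filter, the stricter filter and upper-quartile scaling, EP300 with RLE scaling, limma voom and no filter, PDE8A with the stricter filter and upper-quartile scaling, PRKCQ with no filter, and GSKIP and GNAI3 with upper-quartile scaling. With the block and the GC correction the log2 fold changes of 6 of the 21 genes moved by over 1.5 times while they stayed called, to 0.19 for ADCY6, -0.13 for GNAI3, -0.25 for ATF1, -0.16 for MITF, 0.38 for PRKCZ and 0.28 for SRC. Among the genes called with the block alone and named below, it moved GNAS to 0.26, PRKCD to 0.26 and NR4A1 to -0.61 by over 1.5 times, all still called.

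Among other anchoring proteins, 3 of 21 tested were higher and 1 lower, with a median log2 fold change of -0.06, and 5 were higher and 3 lower with the block. AKAP9, the scaffold of the centrosome and Golgi, went from 104.8 ± 10.4 to 135 ± 10.4 CPM (log2 fold change 0.37), ARFGEF2 rose by 0.26 and SYNM, an intermediate filament protein, by 0.38 on the log2 scale. GSKIP, a small scaffold that also binds GSK3, fell by 0.33.

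Genes that make and degrade cAMP went both ways. Of 6 adenylyl cyclases tested, ADCY6 rose by 0.34 and ADCY3 fell by 0.36 on the log2 scale (median 0.16), and the block gave 2 higher and 1 lower. Of 6 G protein alpha subunits that act on the cyclases, GNAI3, an inhibitory subunit, fell by 0.30 and was the one call without the block (median 0.09). With the block 3 were higher and 1 lower, the 3 being GNAS (log2 fold change 0.17), the stimulatory subunit, GNAL (0.72) and GNAZ (0.84), of which GNAS and GNAZ were higher in all 4 lines. Of 14 cAMP phosphodiesterases, 1 was higher and 2 lower (median 0.13), and with the block 5 were higher and 5 lower. PDE4D, a phosphodiesterase that anchoring proteins hold beside PKA, showed the largest change among them at a well expressed level, from 80.4 ± 9.89 to 37.3 ± 8.43 CPM (log2 fold change -1.11, SE 0.16, edgeR adjusted p = 0.00231). PDE8A fell by 0.34, and PDE7B, at 0.653 CPM with serum and 1.76 CPM without it, rose by 1.44.

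Of 5 cAMP effectors other than PKA, the exchange factors RAPGEF3 and RAPGEF4 (EPAC proteins, which activate Rap GTPases) were both higher, at low levels (median of the 5, 0.02). RAPGEF3 went from 3.05 ± 0.745 to 6.14 ± 0.796 CPM (log2 fold change 1.01), and RAPGEF4 from 0.356 ± 0.234 to 1.69 ± 1.29 CPM (2.21, edgeR adjusted p = 0.0468). RAPGEF4 lost its call with limma voom, with no filter and in 11 of the 12 fits with a library or line removed, and the stricter filter left it untested. Among 11 CREB family factors and coactivators, EP300 rose by 0.24 while CREM fell by 0.56 and ATF1 by 0.47 (median 0.10), and the block gave 3 higher and 2 lower. Among 12 genes that cAMP is known to induce, 3 were lower without the block (median -0.09). The 3 were PDE4D and CREM, which also stand in the lists above, and MITF, which went from 40.2 ± 3.89 to 33.1 ± 2.58 CPM (log2 fold change -0.28, edgeR adjusted p = 0.0496). With the block 5 were lower and 1 higher. The lower ones added were NR4A1 (block log2 fold change -0.41) and PDE4B (-0.40), each lower in all 4 lines, and the higher one was NR4A2, a nuclear receptor gene of the same family as NR4A1, from 6.66 ± 2.96 to 13.7 ± 8.09 CPM (higher in all 4 lines, block log2 fold change 0.96).

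Of 7 PKC isoforms, the other kinase family that AKAP12 holds, PRKCZ rose by 0.60 and PRKCQ by 0.46 on the log2 scale (median 0.05). With the block 3 were higher, PRKCD (0.39) added, and 1 lower, PRKCE (-0.41). Of 9 other AKAP12 binding partners, 1 was higher and 2 lower, and their median of -0.33 was the lowest of the lists. PPP3R1, the regulatory subunit of calcineurin, fell by 0.49 (adjusted p = 0.00200, edgeR), and SRC, the tyrosine kinase, rose by 0.46. With the replicate block 6 of these 9 were lower and 1 higher.

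**Figure D4:**
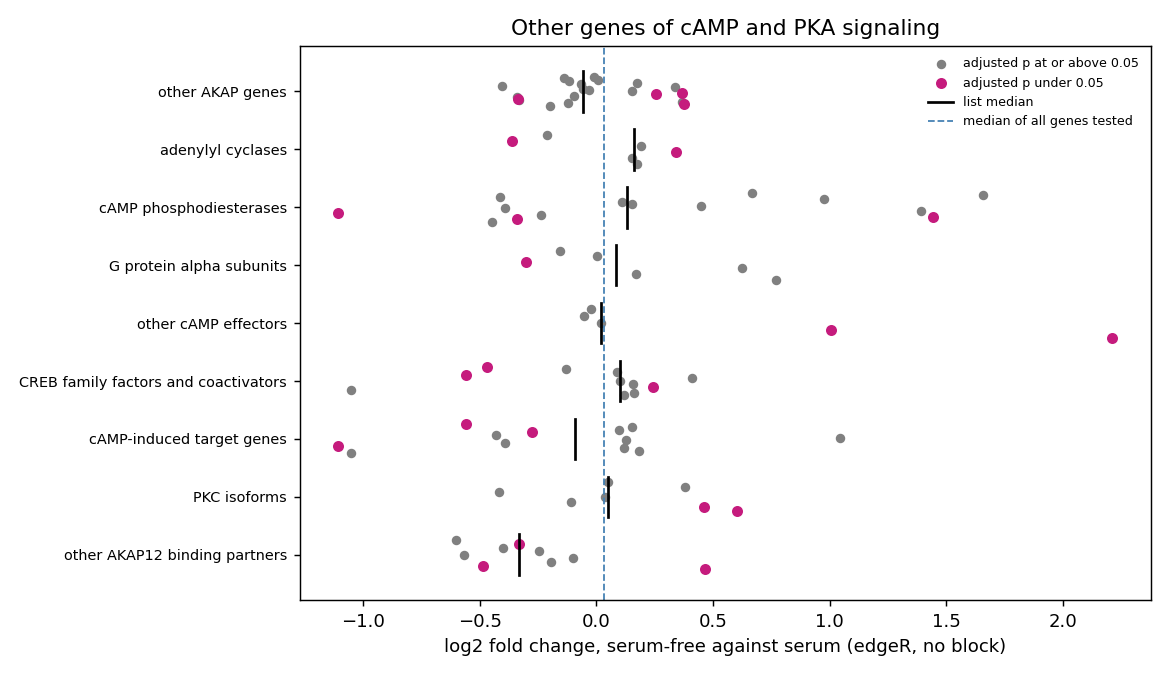
Log2 fold change (serum-free against serum, edgeR, no block) of each tested gene in the 9 lists, with called genes in pink, list medians as black bars and the median of all genes as a dashed line at 0.03. Called genes lie on both sides of 0 in most lists, and the partners' median of -0.33 lies farthest left.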

How the data were processed

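Paired-end RNA-seq libraries, depleted of ribosomal RNA and made with a kit that does not mark strand (NEBNext Ultra), were deposited by the authors as raw HTSeq read counts per Ensembl gene, 1 file per library. The submitters' processing notes name cutadapt, TopHat2 2.0.11, HTSeq and GRCh38; the strand setting and the annotation release are not given in the sources used here. HTSeq leaves multiply aligned and ambiguous reads uncounted, so overlapping genes lose reads. Rows that name no gene were left out of library sizes; reads aligned more than once made up 5.73% to 22.7% of a library.

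Counts were filtered (filterByExpr), TMM-scaled and tested with edgeR 4.0.16 (robust quasi-likelihood fit, R 4.3.3), with Benjamini-Hochberg adjustment over all 17671 genes and a threshold of 0.05. CPM and RPKM are computed from those counts, RPKM with merged exon lengths. Log2 CPM used a prior count of 2. Adjusted p-values of the fits without a block rest on the spread between 4 clones of 1 cell line. With the block they rest on the spread of the serum difference over those clones. In the test between lines they rest on the spread left after line and serum were fitted. Alternatives were DESeq2 1.42.0, limma 3.58.1 (voom), RLE and upper-quartile scaling, other filters, the line as a replicate block with and without a lowess GC correction (span 0.3), and leaving out each library or line. Lines pair the libraries: residuals of the same line correlated at 0.40 to 0.60, those of different lines at -0.40 to 0.13. The scripts were tested on simulated data.

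The members and lists were chosen with earlier results of these data known. Genes named were the 10 members, every called gene of a list (at most 5; 1 is not reported here), and the 5 protein-coding genes most like AKAP12 by each of 2 measures, where the mean count reached 100. Symbols matched 40895 of 58051 identifiers. The older name AKAP2, POPDC1 (the same gene as BVES) and PECAM1 were not matched.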

Additional observations from a re-analysis of the deposited data

Results flagged for a closer look

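Among 36 groups of 4 values searched over the members, 1 held a value far from the others, where chance flags about 1 in 20 groups (1.8 of 36). It was the log2 difference of PRKACA in WT4, at -0.26 beside 0.05 to 0.08 in the other lines, with a gap that was 0.913 of the whole range.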

How the results depend on the processing

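The AKAP12 difference stayed between 2.16 and 2.56 on the log2 scale under every alternative, and the number of genes that differed between lines ran from 2822 to 5285 around 4055 under the alternatives run for it, which left out DESeq2, the GC correction and single libraries. The regulatory to catalytic ratio was close between conditions (2.84 and 2.85) but 2.95 with serum and 2.71 without it when line WT4 was left out. With the replicate block 8067 genes, 4 PKA genes and 46 genes of the pathway lists were called, and with the GC correction and the replicate block 8091, 5 and 50, against 4434, 2 and 21 without either. RLE scaling, upper-quartile scaling and no filter each left 1 PKA gene called. Leaving out a library or a line gave 1589 to 6128 genes called, 0 to 3 PKA genes and 6 to 31 list genes; the serum library of WT1 (2842 genes) and the lines WT1 (1589), WT2 (1975) and WT3 (1873) lowered the count by over 1.5 times. Leaving out the serum library of WT1 or WT2, or the line WT1, WT2 or WT3, left 0 PKA genes called. For PRKAR1B and PRKAR2A, the PKA genes called, 22 of 40 values under the alternatives kept the call and 18 lost it; for the other 6 genes tested, 8 of 120 gained one, and 0 values reversed a call. The causes were not tested. The block's changes to PRKAR2B and PKIA are given with those genes, and it changed no other call among the members. The depth limits PKIB, with 2 to 22 reads per library.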
